A study of Mus musculus with 7 samples.

Results

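Complement C1q and a set of genes used as macrophage markers were followed in mouse skin that lacks the desmosome-associated protein Tuft1. The genes were 10 chosen by name: C1qa, C1qb and C1qc, the genes of the 3 chains of C1q, and Csf1r, Lyz2, Cd68, Adgre1, Mrc1, Cd163 and Cd14. They are 10 of 56691 genes in the deposited count table, and all 10 were among the 12888 genes with enough counts to test. RNA came from skin of 3 Tuft1 knockout mice (mice 2, 3 and 4) that looked healthy, and from healthy skin of 4 wild-type mice (mice 5, 6, 7 and 8), with 1 library per mouse. Values given per library always stand in this order of mice. The labels give no treatment, strain, age, sex or body site, and do not say how the allele was made or whether littermates were used. They do not say whether the libraries came from separate dissections or extraction days, so p-values measure the spread between these mice.

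C1q is the recognition molecule of the classical complement pathway: it binds antibody complexes and the surface of dying cells, and passes the signal to the proteases C1r and C1s. Its A, B and C chains are assembled in equal numbers, and tissue macrophages are a main source of the protein. In skin, macrophages lie mostly in the dermis, depend on signals through the receptor Csf1r, take up debris and foreign particles, and carry scavenger and pattern receptors such as Mrc1, Cd163 and Cd14.

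In the coordinates of the count table (mm39), the C1q genes lay side by side on the minus strand of chromosome 4, in the order C1qb, C1qc and C1qa, within 18.7 kb (positions 136607440 to 136626114). The gaps between them were 3616 and 2851 bases. RefSeq promoter windows, running from 250 bases before to 50 bases after the start of each gene (GRCm38.p6), were at hand for 6 of the 10 genes: C1qb, C1qc, Cd68, Mrc1, Lyz2 and Cd163. The 250 bases before the start are shown for C1qb and C1qc, neighbours whose levels are compared below, and for Lyz2 and Cd68, a gene of an antibacterial enzyme and a gene of a lysosomal protein. Capitals mark GAGGAA on either strand, the core of the PU-box bound by PU.1, a transcription factor of the myeloid lineage. All 4 genes lie on the minus strand, and each sequence reads in the direction of its gene.
C1qb: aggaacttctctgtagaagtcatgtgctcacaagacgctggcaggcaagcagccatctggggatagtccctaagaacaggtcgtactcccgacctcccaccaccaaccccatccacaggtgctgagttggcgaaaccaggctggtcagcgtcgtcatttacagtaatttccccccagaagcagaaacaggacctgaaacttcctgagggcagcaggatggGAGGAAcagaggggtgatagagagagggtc
C1qc: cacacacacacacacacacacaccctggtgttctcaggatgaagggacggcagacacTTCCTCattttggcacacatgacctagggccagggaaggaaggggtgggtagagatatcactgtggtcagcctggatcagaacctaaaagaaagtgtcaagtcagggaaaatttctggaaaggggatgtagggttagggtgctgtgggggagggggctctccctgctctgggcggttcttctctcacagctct
Lyz2: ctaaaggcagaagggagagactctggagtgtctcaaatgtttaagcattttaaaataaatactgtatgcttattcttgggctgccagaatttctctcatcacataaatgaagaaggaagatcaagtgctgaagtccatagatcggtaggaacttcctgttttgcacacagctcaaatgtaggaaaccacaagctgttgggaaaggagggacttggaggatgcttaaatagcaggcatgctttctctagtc
Cd68: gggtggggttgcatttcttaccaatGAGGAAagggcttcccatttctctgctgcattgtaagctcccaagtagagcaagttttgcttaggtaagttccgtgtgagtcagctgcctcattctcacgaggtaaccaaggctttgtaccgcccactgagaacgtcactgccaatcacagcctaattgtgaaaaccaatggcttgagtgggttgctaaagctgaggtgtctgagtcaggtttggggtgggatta
The stretches are chr4:136886201-136886450 for C1qb, chr4:136892915-136893164 for C1qc, chr10:117282273-117282522 for Lyz2 and chr11:69666171-69666420 for Cd68. GAGGAA stood 30 bases before the start of C1qb, 193 bases before that of C1qc on the other strand, and 225 bases before that of Cd68. Within the full windows it was present in 4 of the 6 promoters (C1qb, C1qc, Cd68 and Mrc1), and in 28.3% of 32851 promoter windows of the same length. TGCTGA, the core of a MAF half-site, was present in C1qb and Lyz2 and in 19.5% of all windows. TGANTCA, the AP-1 site, was present in Cd68 and in 7.81% of all windows, and TATAAA was in none of the 6 windows and in 13.6% of all. No match overlapped a match of another motif, both strands were searched, and a match describes the letters only.

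Libraries held 7009237 to 9086523 counts in the knockout and 8490972 to 9256459 in the wild type. Levels are counts scaled to the library (CPM) after trimmed-mean (TMM) scaling, and because the libraries read only the 3' ends of transcripts, counts do not grow with transcript length. A count of 0 allows a level of up to 0.336 to 0.395 CPM in a knockout library and 0.323 to 0.371 CPM in a wild-type library, for counting error only. Tuft1 averaged 22.1 ± 6.23 CPM in knockout skin (SD, n = 3) and 94.9 ± 26.6 CPM in wild-type skin (SD, n = 4), and every knockout library lay below every wild-type library, as labelled. Knockout mouse 2 stood apart: counts were present for 45 of 58 keratin-associated protein genes of the hair shaft, against 2 to 4 in the other 6 libraries. The libraries of knockout mouse 2 and wild-type mouse 6 also covered the most genes, with 14379 and 14179 genes detected against 12302 to 13139 in the other 5. The log2 fold changes of the 10 genes, but for Cd14, and the medians of the gene lists are therefore given with and without mouse 2.

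Over the whole table, 3 genes passed a Benjamini-Hochberg adjusted p of 0.05 in edgeR's quasi-likelihood test, or 0.0233% of the 12888 genes tested. None of the 10 genes did. None passed an unadjusted p of 0.05 either, which 4.31% of all tested genes did (1.71% higher in the knockout), and none had knockout and wild-type libraries that did not overlap, which 6.89% of all tested genes had (3.44% higher in the knockout). The adjusted p was 1.00 for each of the 10. DESeq2 and limma-voom also called none, with 2 and 0 of the 10 at an unadjusted p under 0.05. Of all 12888 tested genes, 952 with DESeq2 and 845 with limma-voom were under that limit. The fitted log2 fold change (knockout over wild type) was above 0 for 9 of the 10 genes with a median of 0.31, against 49.5% of all tested genes above 0 and a median of -0.01. That count rested on knockout mouse 2, whose library was the highest of the 7 for 8 of the 10 genes and for 12.3% of all tested genes. Without mouse 2, 4 of the 10 were above 0 and the median was -0.24.

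**Figure D1:**
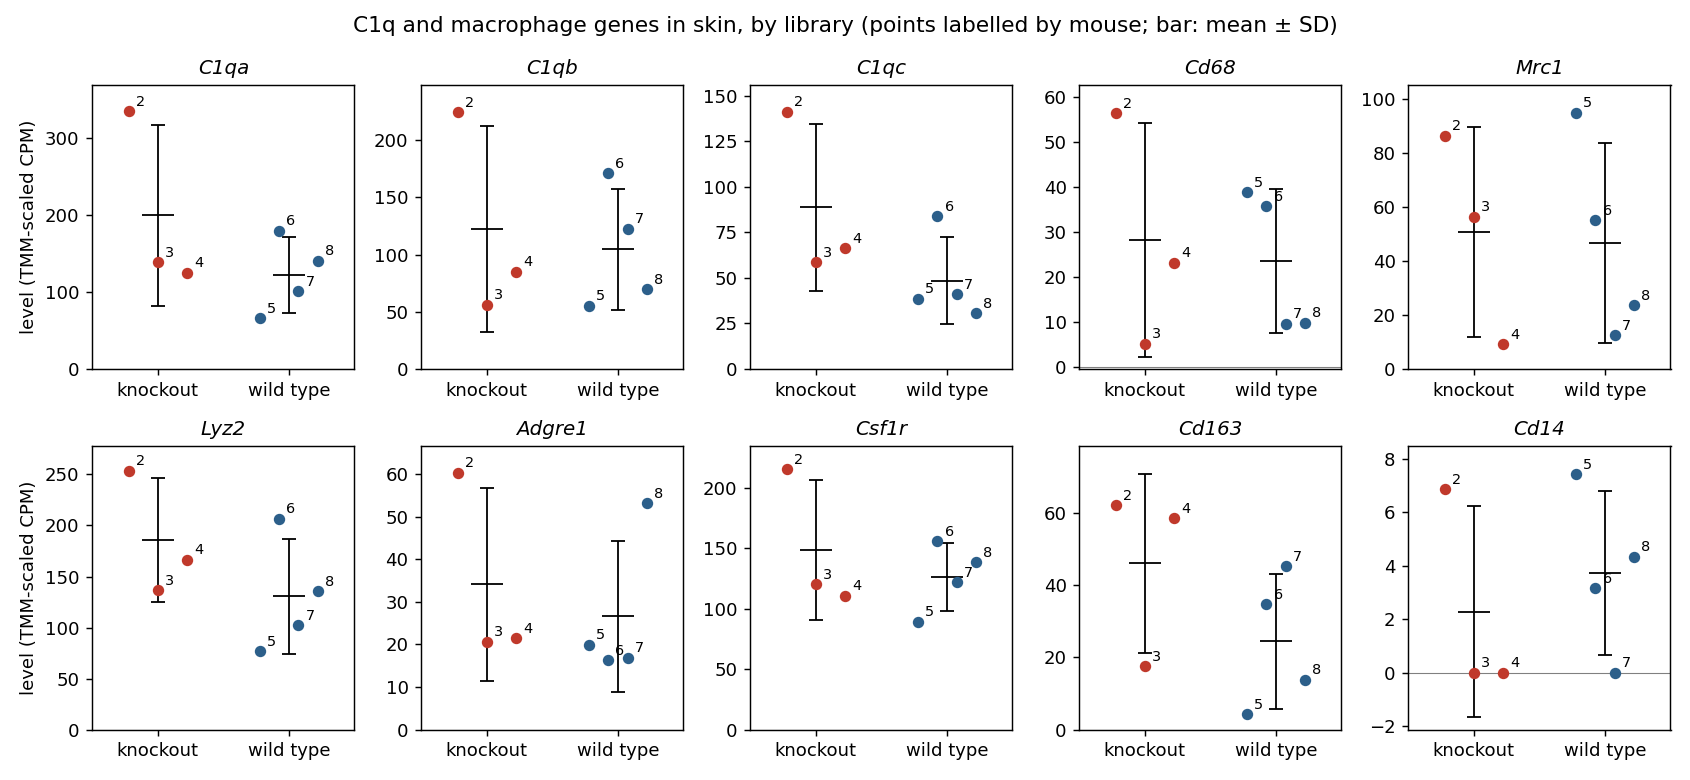
Level of each gene in TMM-scaled CPM (vertical axes, linear, one scale per gene) in the knockout libraries (red, mice 2, 3 and 4) and the wild-type libraries (blue, mice 5 to 8), with the mean ± SD of each group in black. The library of knockout mouse 2 is the highest for every gene except Mrc1 and Cd14, where wild-type mouse 5 is the highest, and the groups overlap for all 10 genes.

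C1qa, the A chain, had 334.6, 138.6 and 125.1 CPM in knockout skin and 66.1, 179.5, 100.9 and 140.5 CPM in wild-type skin. Knockout mouse 2 lay above every other library, and the other 2 knockout libraries lay inside the wild-type range. The log2 fold change was 0.71 (SE 0.39, 95% interval -0.13 to 1.56; edgeR adjusted p = 1.00), and without mouse 2 it was 0.11.

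C1qb, the B chain, had 224.6, 56.2 and 85.0 CPM in knockout skin and 55.1, 170.9, 122.5 and 69.9 CPM in wild-type skin. The lowest knockout library and the lowest wild-type library were at almost the same level. Its log2 fold change was 0.22 (SE 0.48, 95% interval -0.81 to 1.25), and without mouse 2 it was -0.57.

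C1qc, the C chain, had 141.2, 58.5 and 66.2 CPM in knockout skin and 38.5, 84.0, 40.9 and 30.7 CPM in wild-type skin. Here all 3 knockout libraries lay above 3 of the 4 wild-type libraries, and only wild-type mouse 6 overlapped with them. The log2 fold change was 0.87 (SE 0.43, 95% interval -0.07 to 1.81; edgeR adjusted p = 1.00), and without mouse 2 it was 0.36. In DESeq2, C1qa and C1qc were the 2 genes under an unadjusted 0.05, with an adjusted p of 0.655 for C1qa and 0.591 for C1qc.

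Summed over the 3 chains, C1q reached 700.4, 253.3 and 276.2 CPM in knockout skin and 159.8, 434.4, 264.3 and 241.1 CPM in wild-type skin. The 2 highest libraries, knockout mouse 2 and wild-type mouse 6, came from different genotypes, and they were also the 2 in which most genes were detected. The remaining knockout libraries lay between 253.3 and 276.2 CPM and the remaining wild-type libraries between 159.8 and 264.3 CPM. Whether the number of genes detected has a part in the C1q level was not tested. In pieces of whole skin, fewer cells of a type and less RNA per cell cannot be told apart.

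**Figure D2:**
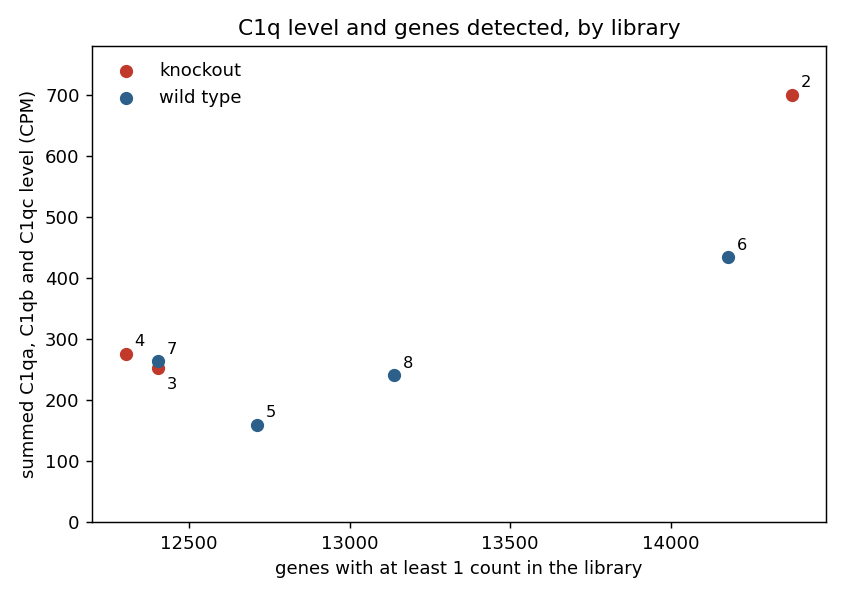
Summed C1qa, C1qb and C1qc level in TMM-scaled CPM (vertical axis) against the number of genes with at least 1 count in the library (horizontal axis), 1 point per mouse, knockout in red and wild type in blue. Knockout mouse 2 (700.4 CPM, 14379 genes) and wild-type mouse 6 (434.4 CPM, 14179 genes) lie to the upper right, and the other 5 libraries lie between 159.8 and 276.2 CPM.

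The chains were next compared within each library, which does not depend on how libraries are scaled. C1qa took 47.8%, 54.7% and 45.3% of the C1q counts in knockout skin and 41.4%, 41.3%, 38.2% and 58.3% in wild-type skin. C1qb took 32.1%, 22.2% and 30.8% in the knockout libraries, and 34.5%, 39.3%, 46.4% and 29.0% in the wild-type libraries. C1qc took 20.2%, 23.1% and 23.9% in the knockout libraries, and 24.1%, 19.3%, 15.5% and 12.7% in the wild-type libraries. C1qa was the largest share in 6 of 7 libraries and C1qc the smallest in 6 of 7. Wild-type mouse 7, where C1qb led, and knockout mouse 3, where C1qc passed C1qb, were the exceptions.

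Between genotypes the C1qb share averaged 28.3% ± 5.36 in the knockout and 37.3% ± 7.37 in the wild type (SD, n = 3 and 4), a difference of -8.96 percentage points (exact two-sided permutation p = 0.171). The C1qa share averaged 49.3% ± 4.88 in the knockout and 44.8% ± 9.11 in the wild type (difference 4.47 points, exact permutation p = 0.429). The C1qc share averaged 22.4% ± 1.99 in the knockout and 17.9% ± 4.95 in the wild type (difference 4.49 points, exact permutation p = 0.229). No share differed between genotypes beyond the spread of mice, and the smallest p this design allows is 0.0286 over 35 splits. Within the wild type the shares also differed: C1qa took 58.3% in mouse 8 (exact Clopper-Pearson 95% interval 56.0% to 60.5%) and 38.2% in mouse 7 (36.1% to 40.3%). These intervals cover counting error only, and they take each read as a separate molecule. The reads carry no molecular tags and removal of duplicates is not known here, so the intervals can be too narrow.

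**Figure D3:**
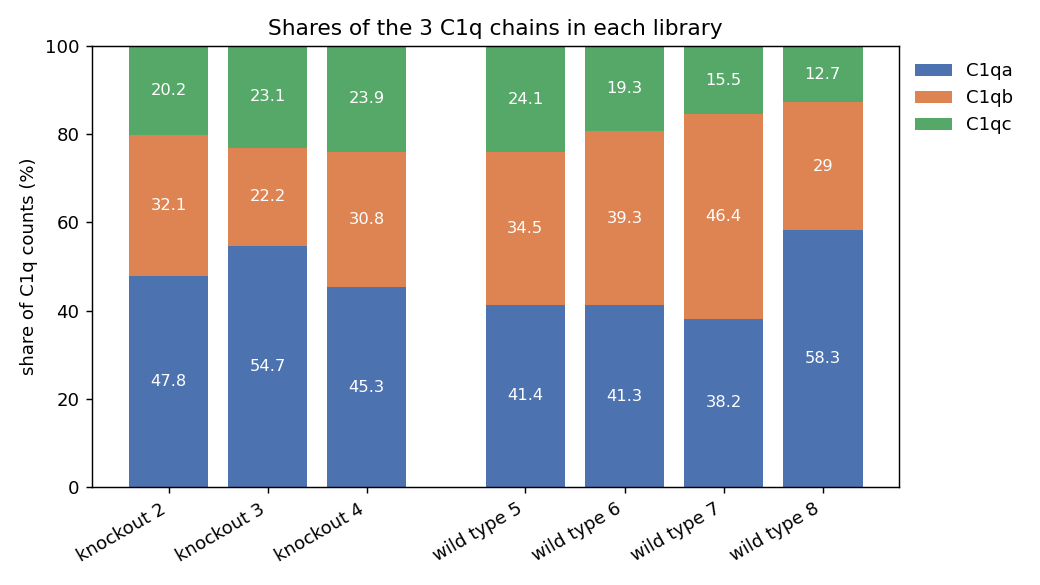
Share of the C1q counts (vertical axis, percent, stacked to 100) taken by C1qa, C1qb and C1qc in each library, knockout mice 2 to 4 on the left and wild-type mice 5 to 8 on the right. C1qa spans 45.3% to 54.7% in the knockout and 38.2% to 58.3% in the wild type, so that the 2 ranges overlap.

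Csf1r, the receptor through which Csf1 and Il34 maintain macrophages, had 215.4, 120.3 and 110.8 CPM in knockout skin and 89.4, 156.0, 122.0 and 138.4 CPM in wild-type skin. It varied least of the 10 genes, with a biological coefficient of variation of 31.3%. The median over all tested genes, most of them at lower levels, was 78.2%. For Csf1r the log2 fold change was 0.24 (SE 0.30, 95% interval -0.42 to 0.89), and without mouse 2 it was -0.13. Set against this receptor within each library, C1q had 3.25, 2.11 and 2.49 counts per Csf1r count in knockout skin and 1.79, 2.78, 2.17 and 1.74 in wild-type skin. The ratio averaged 2.62 ± 0.583 in the knockout and 2.12 ± 0.482 in the wild type, and the groups overlapped. The exons of Csf1r overlap those of Hmgxb3 on the other strand, which had 669 counts in all against 7908 for Csf1r, and whether counting used strand is not known here.

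Lyz2, the lysozyme of macrophages and other myeloid cells, had 253.4, 136.4 and 166.4 CPM in knockout skin and 77.1, 206.5, 102.5 and 135.6 CPM in wild-type skin. All 3 knockout libraries lay above 3 of the 4 wild-type libraries, knockout mouse 3 by less than 1 CPM, and wild-type mouse 6 lay among them. The log2 fold change was 0.51 (SE 0.34, 95% interval -0.22 to 1.24), and without mouse 2 it was 0.21. Of the 50-base words in the last 500 bases of the Lyz2 transcript, 16.9% also occur in Lyz1, so that part of the reads could belong to either gene.

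Cd68, a glycoprotein of lysosomes, had 56.4, 5.26 and 23.3 CPM in knockout skin and 38.9, 35.8, 9.70 and 9.90 CPM in wild-type skin. The spread within the knockout, from the highest library of all to the lowest of all, covered the whole wild-type range. Knockout over wild type, the log2 fold change was 0.26 (SE 0.84, 95% interval -1.54 to 2.07), and without mouse 2 it was -0.73.

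Adgre1, an adhesion receptor of mouse macrophages, had 60.3, 20.6 and 21.4 CPM in knockout skin and 19.9, 16.3, 16.9 and 53.1 CPM in wild-type skin. A single library of each genotype, knockout mouse 2 and wild-type mouse 8, stood above 50 CPM and the other 5 lay between 16.3 and 21.4 CPM. The log2 fold change was 0.36 (SE 0.66, 95% interval -1.06 to 1.78), and without mouse 2 it was -0.34.

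Mrc1, the mannose receptor, which takes up glycoproteins and microbes, had 86.5, 56.3 and 9.21 CPM in knockout skin and 94.96, 55.04, 12.4 and 23.6 CPM in wild-type skin. Both genotypes ran from about the same low to about the same high level. For Mrc1 the log2 fold change was 0.12 (SE 0.73, 95% interval -1.45 to 1.70), and without mouse 2 it was -0.51.

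Cd163, the scavenger receptor for complexes of haemoglobin and haptoglobin, had 62.1, 17.6 and 58.5 CPM in knockout skin and 4.31, 34.7, 45.2 and 13.9 CPM in wild-type skin. Knockout mice 2 and 4 lay above all wild-type libraries and knockout mouse 3 lay among them. Its log2 fold change, 0.91, was the largest of the 10 genes, with an SE of 0.73 and a 95% interval of -0.67 to 2.49, and without mouse 2 it was 0.63. Hp, the haptoglobin whose complexes Cd163 takes up and which fat cells also make, averaged 80.9 ± 31.1 CPM in the knockout and 308.5 ± 145 CPM in the wild type, with no overlap between the groups (log2 fold change -1.93, SE 0.37; edgeR adjusted p = 0.187).

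Cd14, the co-receptor for bacterial lipopolysaccharide, was the sparsest of the 10, with 53, 0 and 0 counts in knockout skin and 69, 28, 0 and 35 counts in wild-type skin. These are 6.86, 0 and 0 CPM in the knockout and 7.43, 3.15, 0 and 4.33 CPM in the wild type. Counts were absent in libraries of both genotypes. The fitted log2 fold change of -0.70 had a 95% interval of -6.61 to 5.21, and without mouse 2 both remaining knockout libraries were at 0.

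**Figure D4:**
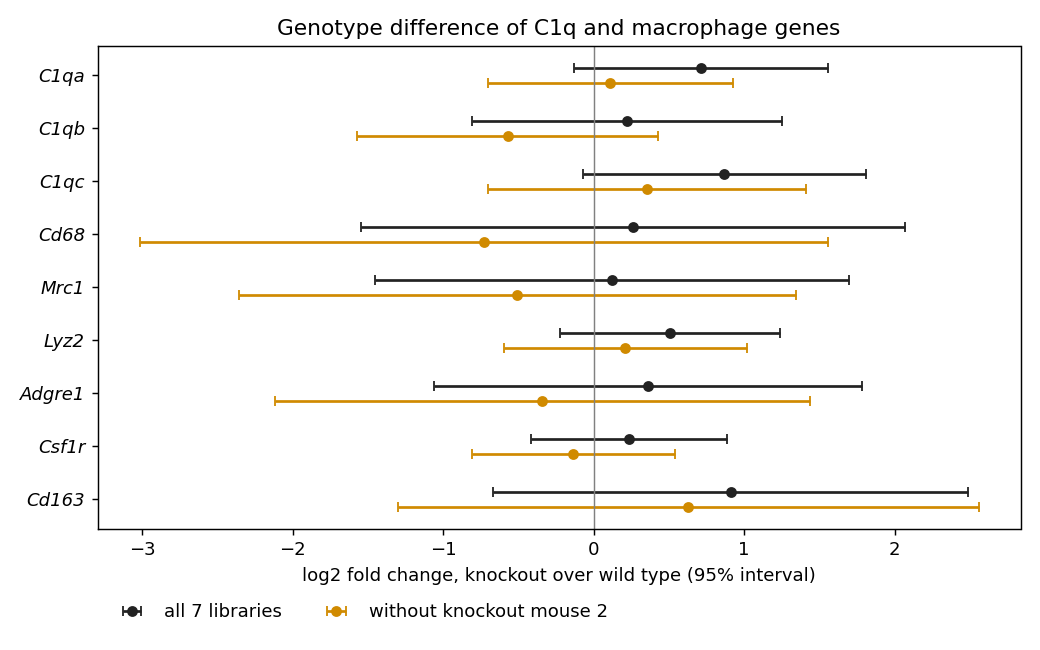
Log2 fold change of each gene, knockout over wild type (horizontal axis), with its 95% interval from edgeR's quasi-likelihood fit, from all 7 libraries (black) and without knockout mouse 2 (orange). All intervals include 0, and the points of C1qb, Cd68, Mrc1, Adgre1 and Csf1r lie on the other side of 0 without mouse 2; Cd14, with an interval of -6.61 to 5.21, is not drawn.

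The 10 genes did not follow one order over the libraries. Over the 7 libraries, and among 6719 genes with 20 CPM or more on average, Csf1r was the gene with the second-highest Pearson correlation of log2 CPM with summed C1q (r = 0.947, Spearman's rho = 0.679) and Lyz2 the 11th (r = 0.919, rho = 0.893). Cd163 reached r = 0.745, Cd68 0.453, Adgre1 0.428 and Mrc1 0.207, and Cd14, below the CPM limit, 0.217. The median over all ranked genes was 0.048. Without the libraries of mice 2 and 5, the farthest from the median of C1q, r was 0.671 for Csf1r, 0.763 for Lyz2, 0.344 for Cd163, 0.803 for Cd68, 0.419 for Mrc1, 0.404 for Cd14 and -0.537 for Adgre1. The order of the genes therefore changed with these 2 libraries: Cd68 stood above Lyz2 without them, and Adgre1 turned in sign. These are descriptions of 7 libraries, which share whatever sets detection and tissue content in each.

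Outside the 10 genes, those most like C1q over the libraries were Lcp1 (r = 0.967), Prmt5 (0.942), Clec10a (0.940), Grn (0.938), Col6a3 (0.933), Ctsk (0.924), Cotl1 (0.922) and Fbxl5 (0.922). Lcp1 encodes an actin-bundling protein of leukocytes, Clec10a a lectin of macrophages and dendritic cells, and Grn progranulin. Col6a3 is a collagen chain of fibroblasts, and Ctsk encodes a protease that degrades collagen. Without mice 2 and 5, r was 0.935 for Lcp1, 0.916 for Grn, 0.887 for Prmt5, 0.874 for Clec10a, 0.873 for Fbxl5, 0.850 for Cotl1, 0.750 for Ctsk and 0.593 for Col6a3. Lcp1 had 107.6, 38.8 and 36.3 CPM in knockout skin and 18.1, 76.9, 29.0 and 23.9 CPM in wild-type skin, so that its 2 highest libraries were those of C1q.

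A wider list of 40 macrophage genes had 33 that were tested and 1, Folr2, without counts in any library. None was called over all genes; 22 had a log2 fold change above 0 and 11 below, with a median of 0.21, against 49.5% above 0 among all tested genes. Without knockout mouse 2 the median was -0.43. The library of mouse 2 was the highest of the 7 for 16 of the 33, against 12.3% of all tested genes. The list summed to 2571, 1358 and 1456 CPM in knockout skin and to 1330, 1874, 1309 and 1443 CPM in wild-type skin. Apart from mice 2 and 6, the sums of the 2 genotypes thus lay close together. Maf and Gas6 alone gave 448.5 and 230.4 of the 1358 CPM in knockout mouse 3, so the sums rest in large part on these genes.

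Maf, a transcription factor of macrophages that other skin cells also express, was the gene of this list with the smallest p. It had 429.7, 448.5 and 513.8 CPM in knockout skin and 261.6, 321.4, 311.0 and 367.2 CPM in wild-type skin. The groups did not overlap, and mouse 2 was the lowest of the 3 knockout libraries, but the difference did not pass over all genes (log2 fold change 0.56, SE 0.20; edgeR adjusted p = 1.00). Gas6, a ligand that bridges dying cells to the receptor Mertk, had 216.5, 230.4 and 151.1 CPM in the knockout, and 245.2, 278.8, 286.6 and 290.6 CPM in the wild type. These groups did not overlap either (log2 fold change -0.47, SE 0.23). Of the 33 tested genes of this list, 2 were higher and 1 was lower in the knockout without overlap. Over all tested genes, 6.89% did not overlap. Clec10a averaged 176.2 ± 137 CPM in the knockout and 103.8 ± 64.8 CPM in the wild type, and Cd209a, a lectin with counts in knockout mice 2 and 3 and in wild-type mouse 6, averaged 11.1 ± 9.84 CPM in the knockout and 0.619 ± 1.24 CPM in the wild type.

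**Figure D5:**
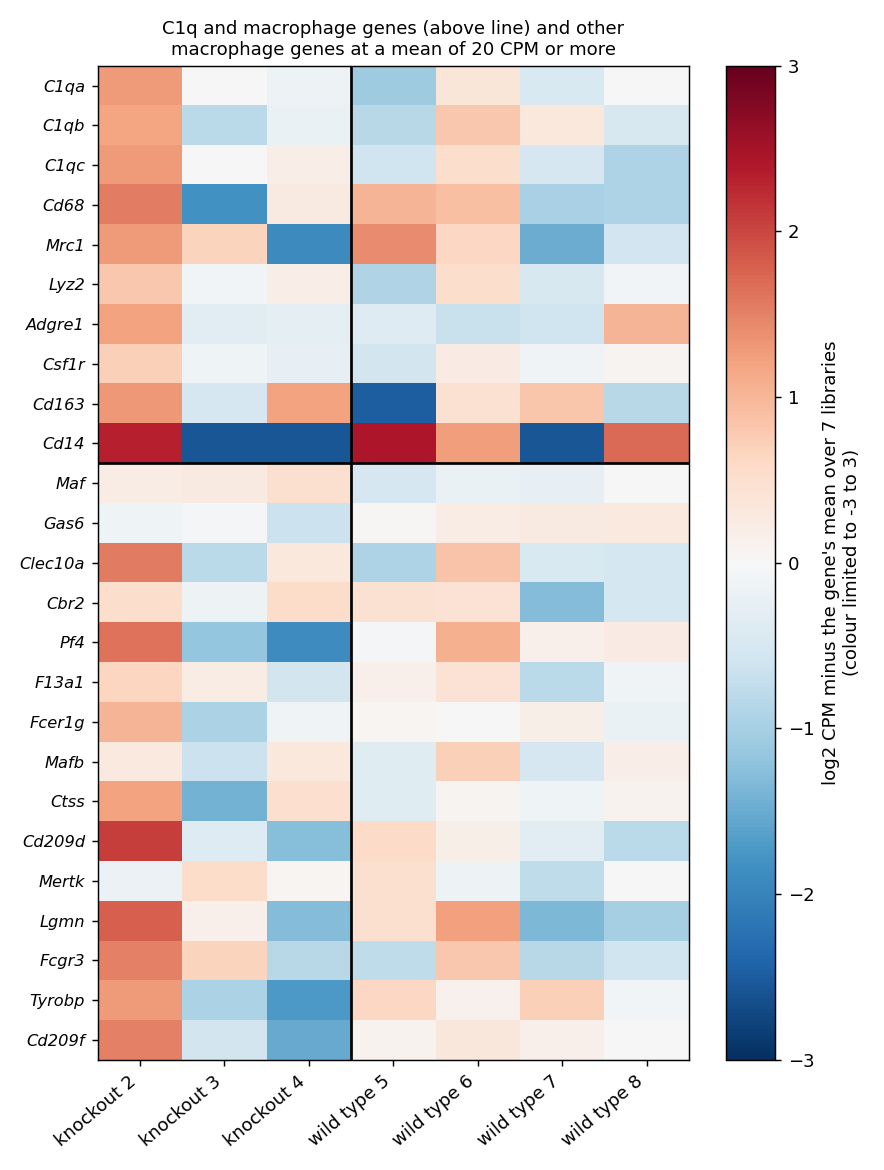
Log2 CPM minus the mean of each gene over the 7 libraries (colour, limited to -3 to 3) for the 10 genes above the black horizontal line and for the other macrophage genes averaging 20 CPM or more below it, with knockout libraries left and wild-type libraries right of the vertical line. The column of knockout mouse 2 is red for most genes, while Maf is higher in all 3 knockout libraries and Gas6 lower.

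Of 14 further genes of the classical pathway, through which C1q acts, 8 were tested and none was called. Their log2 fold changes were above 0 for 4 and below 0 for 4, with a median of 0.03, and of -0.26 without mouse 2. The proteases that C1q activates, C1ra and C1s1, averaged 71.9 ± 46.4 and 70.6 ± 41.9 CPM in the knockout, and 62.1 ± 21.1 and 58.4 ± 12.9 CPM in the wild type. Their substrate C4b averaged 88.3 ± 43.4 CPM in the knockout and 88.8 ± 28.2 CPM in the wild type, and C3, where the pathways meet, averaged 101.0 ± 57.8 CPM in the knockout and 96.5 ± 33.1 CPM in the wild type. All 4 differed by less than the spread between mice. The related gene C4a had counts in knockout mouse 2 and wild-type mice 5 and 6 and in no other library, and C7, C8a and C8b of the membrane attack complex had none in any.

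In the lectin and alternative pathways 5 of 11 genes were tested and none was called, with a median of 0.20, and of -0.50 without mouse 2. Cfd, factor D of the alternative pathway and a product of fat cells, had 1642, 1302 and 679.5 CPM in knockout skin and 2738, 2713, 1690 and 3076 CPM in wild-type skin. Every knockout library lay below every wild-type library (log2 fold change -1.08, SE 0.30; edgeR adjusted p = 0.667). A list of 12 fat cell genes that includes Cfd summed to 3369 to 5827 CPM in the knockout and 8485 to 14550 CPM in the wild type, with all 12 log2 fold changes below 0, also without mouse 2, and none called; its part in the Cfd difference was not tested.

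Of 22 complement regulators and receptors 15 were tested, 8 above 0 and 7 below, with none called and a median of 0.09, which was -0.05 without mouse 2. Cd59a, which blocks the membrane attack complex on host cells, had 140.4, 183.8 and 122.5 CPM in knockout skin and 255.7, 265.3, 247.3 and 235.6 CPM in wild-type skin. The groups did not overlap (log2 fold change -0.75, SE 0.23; edgeR adjusted p = 0.793). Serping1, the inhibitor of C1r and C1s, averaged 507.9 ± 327 CPM in the knockout and 568.4 ± 195 CPM in the wild type. C3ar1, the receptor for the C3a fragment, had 29.8, 3.58 and 19.1 CPM in the knockout, and 0, 10.8, 0 and 0 CPM in the wild type (log2 fold change 2.69, SE 2.16).

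A list of 9 genes held ligands of Csf1r, related colony factors, and receptor chains such as Csf2ra, Csf2rb and Il3ra. Of these, 6 were tested and none was called, with a median of -0.37, and of -0.62 without mouse 2. The tested genes were Il34, Csf1 and receptor chains, so the median is not one of ligands alone. Il34, the Csf1r ligand made by keratinocytes, had 40.3, 30.1 and 94.0 CPM in knockout skin and 106.4, 152.7, 165.0 and 32.5 CPM in wild-type skin. The knockout libraries lay below 3 of the 4 wild-type libraries and wild-type mouse 8 overlapped with them (log2 fold change -1.06, SE 0.52). Csf1, the other ligand, averaged 23.6 ± 8.84 CPM in the knockout and 23.0 ± 13.7 CPM in the wild type; it lies outside the naming rule and is given because it is the partner of Il34. Il3ra had no counts in the 3 knockout libraries, and 7.32, 7.65, 0 and 1.86 CPM in the wild-type libraries (edgeR adjusted p = 1.00).

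Chemokines and receptors of monocyte recruitment had 10 of 12 tested genes above 0 and none called, with a median log2 fold change of 0.76. Without knockout mouse 2 the median was -0.06. Ccl8 had 157.5, 34.2 and 58.8 CPM in knockout skin and 41.1, 118.6, 44.8 and 49.0 CPM in wild-type skin, again with mice 2 and 6 as the 2 highest. Genes of activated macrophages had 4 of 11 above 0 and a median of -0.48 (-0.99 without mouse 2), with none called: Il1b, a cytokine of activated macrophages, had a log2 fold change of -1.71 (SE 1.14), and Retnla averaged 293.5 ± 171 CPM in the knockout and 387.6 ± 134 CPM in the wild type. Genes of lipopolysaccharide sensing, around Cd14, had 3 of 11 above 0, a median of -0.09 (-0.43 without mouse 2) and none called. Genes of haemoglobin and iron handling, around Cd163, had 3 of 9 above 0, a median of -0.41 (-0.73 without mouse 2) and none called.

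Markers of other cells in the same pieces of skin differed between the libraries as well. The 10 genes of fibroblasts and dermal matrix summed to 35020, 19150 and 12840 CPM in knockout skin and to 13220, 19850, 16280 and 22580 CPM in wild-type skin, with 9 of 10 log2 fold changes above 0 and a median of 0.41. Without mouse 2, 4 of the 10 were above 0 and the median was -0.09. The 13 keratinocyte genes summed to 21300 to 22530 CPM in the knockout and to 22690 to 28050 CPM in the wild type, with a median log2 fold change of -0.26, and -0.21 without mouse 2. Mouse 2 was thus the highest library for dermal matrix as well as for C1q, while the keratinocyte sum was lowest there. By the mean log2 CPM of the keratinocyte genes, knockout mouse 4 (9.75) and wild-type mouse 6 (9.81) lay below mouse 2 (9.83). The part of tissue composition in the C1q and macrophage values was not tested.

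Among lists of other leukocytes no gene was called, and they differed in how far they rested on mouse 2. General leukocyte genes had 7 of 11 above 0 and a median of 0.11 with all libraries, but 3 of 13 above 0 and a median of -0.84 without mouse 2. T cell genes had 6 of 10 above 0 and a median of 0.37, and 0.24 without mouse 2. Genes of Langerhans and dendritic cells had 3 of 10 above 0 and a median of -0.05, and -0.14 without mouse 2. Mast cell genes summed to 540.2 to 631.5 CPM in the knockout and 348.0 to 410.5 CPM in the wild type, without overlap, and had 7 of 9 above 0 and a median of 0.68, which was 0.62 without mouse 2. Ptprc, the common leukocyte antigen, averaged 19.8 ± 5.75 CPM in the knockout and 32.0 ± 2.58 CPM in the wild type, without overlap between the groups (log2 fold change -0.69, SE 0.58). Among the 11 tested general leukocyte genes it was the 1 lower without overlap, and 1 other gene was higher without overlap. Over all tested genes, 6.89% had groups that did not overlap. Neutrophil genes summed to 37.9 to 72.6 CPM in the knockout and 24.6 to 66.6 CPM in the wild type, and 7 of the 12, among them Ly6g, Mpo, Camp and Ltf, had no counts in any library; the 3 tested had a median of -0.28, and -0.32 without mouse 2. B and plasma cell genes had 2 of 3 tested genes above 0, with a median of 0.41, and 1 of 3 and -0.17 without mouse 2, with Cd79a, Cd79b and Ms4a1 without counts.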

How the data were processed

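Skin RNA of 3 Tuft1 knockout and 4 wild-type mice was, per the labels' protocols, extracted from powdered frozen tissue and made into QuantSeq libraries, which read the 3' ends of polyadenylated transcripts. The authors deposited whole-number counts per gene for 56691 genes. Per the submitters' processing notes, STAR, GATK 4.2.4.0, featureCounts, Subread 2.0.3, edgeR 3.36.0 and mm39 were used, with no step given for each. Strand use and removal of duplicates are not given in the sources used here. The authors also deposited a table of log2 values for 12954 genes: all 90678 values equalled edgeR log2 CPM of the raw counts (TMM factors, prior count 2, tolerance 1e-09), so it served as a check only.

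Raw counts were analysed with edgeR 4.0.16 in R 4.3.3: edgeR's expression filter (minimum 10 counts) kept 12888 of 19128 genes with any count, libraries were TMM-scaled, and knockout was compared with wild type by the quasi-likelihood F test with Benjamini-Hochberg adjustment over all genes tested, called below 0.05. Standard errors were derived from the F statistic, and 95% intervals from the t distribution with the fit's degrees of freedom. Shares of C1q chains were compared by an exact two-sided permutation test over 35 splits. The procedure was tested on simulated counts. Alternatives were DESeq2 size factors and the DESeq2 1.42.0 test, limma-voom (limma 3.58.1), other filters, and leaving out mice. Library totals ranged from 7009237 to 9256459 counts.

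The 10 genes, the other lists and the alternatives were chosen with earlier results of these data known. Named were all 10 genes; of each other list its called genes or, with none called, genes among the 3 with the smallest p and the 3 with the highest mean; the 8 genes most correlated with summed C1q; and Tuft1. Some genes under the rule are not reported here, and Csf1 and genes without counts or with counts in few libraries were named outside it. Promoter sequences are from RefSeq (GRCm38.p6), and coordinates of genes are those of the count table (mm39).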

Additional observations from a re-analysis of the deposited data

Results flagged for a closer look

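In the wild type, 8 of 113 values had 1 mouse far from the other 3, by a gap that took most of the range of the group (Dixon's 95% limit); chance alone would give about 1 in 20, or 5.65 values. The knockout, with 3 mice, could not be examined in this way. Among the 10 genes this was Adgre1: wild-type mouse 8 had a log2 CPM of 5.74, and the other wild-type mice had 4.05 to 4.33. The share of C1qa among C1q counts was 58.3% in the same mouse, against 38.2% to 41.4% in the others.

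Wild-type mouse 6 stood above the other wild-type mice for Ccl8 (log2 CPM 6.89 against 5.37 to 5.62), and for Cd209a (1.44) and C3ar1 (3.46), which had no counts in the others. Wild-type mouse 8 was the lowest for Tek (1.30 against 2.96 to 3.20). Wild-type mouse 5 was the lowest for Tpsb2 (7.08 against 7.46 to 7.52), and wild-type mouse 7 for Tuft1 (5.80 against 6.70 to 6.84).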

How the results depend on the processing

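Under all 13 alternatives, none of the 10 genes was called over all genes. Of 125 log2 fold changes recomputed for them, 111 kept their direction and 14 did not. With limma-voom, Cd68 became -0.23 and Mrc1 -0.00303. Without knockout mouse 2, C1qb became -0.57, Cd68 -0.73, Mrc1 -0.51, Adgre1 -0.34 and Csf1r -0.13; without mice 2 and 6, an alternative chosen after seeing the data, they became -0.24, -0.46, -0.42, -0.52 and -0.024. For Mrc1, leaving out wild-type mouse 7 gave -0.19 and leaving out wild-type mouse 8 gave -0.096. C1qa (0.11 to 0.95), C1qc (0.36 to 1.26), Lyz2 (0.21 to 0.81) and Cd163 (0.56 to 1.39) stayed above 0 in every alternative that held them. With 1 mouse left out, the highest values were 0.57 for C1qb, 0.76 for Cd68, 0.74 for Mrc1, 0.94 for Adgre1 and 0.40 for Csf1r. Without wild-type mouse 6, 3 of the 10 genes had an unadjusted edgeR p under 0.05, as had 465 of all 12245 genes tested in that setting. With any other single mouse left out, 0 or 1 of the 10 had.

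Over all genes the count of calls was 3 with DESeq2 size factors in edgeR, 123 with the DESeq2 test, 22 with limma-voom, 76 with no filter on low counts, 25 among genes averaging 50 CPM or more (which held 5 of the 10 genes), 0 to 1 with 1 mouse left out, and 0 without mice 2 and 6; the cause was not tested. With 1 mouse left out, the difference in chain share was 1.74 to 8.96 points for C1qa, -11.7 to -5.89 for C1qb and 2.76 to 6.56 for C1qc. Setting genes at 0 in a whole group to a level of 3 counts per library changed none of 46 list medians. Most of these lists held no such gene, and the most in any was 5 of 34. A gene that stays on its side of the median cannot move it, so this says little about how firm the medians are. No paired analysis was possible because knockout and wild-type mice share no numbers. With 3 and 4 mice, the 95% intervals reach changes of more than 1.5 times in both directions for 6 of the 10 genes. Changes of that size are therefore not excluded in either direction for these 6. For C1qa, C1qc, Lyz2 and Csf1r the intervals reach increases of 2.94, 3.50, 2.36 and 1.85 times. Increases of more than 1.5 times are thus not excluded for these genes either. The common biological coefficient of variation was 108% over all genes, and 9 of the 10 genes varied less than the median gene (78.2%). Only 3485 of the 12888 tested genes averaged 50 CPM or more, as did 5 of the 10. The 10 genes were not compared with genes of like level, so this does not show that they varied little for their level. In the simulated counts, with changes placed in genes drawn from all tested genes, 0 of 48 changes of 2 times were called. Of changes of 4 times, 13 of 47 were called.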
